A study of Homo sapiens with 2 samples.

Results

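The HOX cluster genes encode homeodomain transcription factors that lie side by side in 4 clusters, HOXA on chromosome 7, HOXB on chromosome 17, HOXC on chromosome 12 and HOXD on chromosome 2. They were compared between HARA-B4, a highly bone-metastatic subline, and HARA, the parental human squamous cell lung cancer line from which it derives. Members were all probe sets whose only gene symbol in the platform annotation was HOXA, HOXB, HOXC or HOXD followed by a number, with antisense genes left out. This gave 44 of the 54675 probe sets on the array and 28 of the 39 HOX genes in RefSeq, namely 1 of 11 HOXA, 10 of 10 HOXB, 9 of 9 HOXC and 8 of 9 HOXD genes. The HOXA genes other than HOXA2, and HOXD3, are not analysed here. Total RNA of each line, grown in culture in the same serum-containing medium, was hybridised to 1 Affymetrix array (n = 1 for each line). Every difference below therefore sets 1 array against another, has no p-value, and leaves the spread between cultures unmeasured.

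HOX proteins bind DNA through the homeodomain, often together with PBX and MEIS proteins, and set the identity of body regions along the head-to-tail axis. Genes with the same number in different clusters are paralogues, and low numbers are switched on earlier and nearer the head than high numbers. In embryonic lung, low and middle HOXA and HOXB genes take part in branching and in tracheal patterning, as known from mouse mutants. In adult cells, clusters are kept silent by Polycomb complexes and active by MLL proteins, and many tumours carry HOX patterns unlike their tissue of origin.

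Signals are linear probe set intensities, and differences are HARA-B4 minus HARA on the log2 scale. Where a gene had several probe sets, the one with the highest log2 signal averaged over the arrays stands for it. The background level was a signal of 27.1, the 95th percentile over both arrays of 165 probe sets for receptors of smell and taste (the olfactory, taste and vomeronasal families). Where a gene was above that level on 1 array only, the other array was set to it, and the fold is a lower bound. A gene was counted as different at 2-fold or more. Both arrays had similar levels, with a median probe set signal of 16.2 in HARA-B4 and 17.3 in HARA, and the median difference of the 11489 genes above background on at least 1 array was 0.01. The only repeat measurement came from genes with several probe sets, whose differences had a within-gene SD of 0.30 over 4830 genes. Over 1650 genes with a low mean signal it was larger, at 0.36, and most HOX genes above background also had low signals. With bounds counted as values, it was 0.59 for HOXB5, 0.73 for HOXB7, 0.34 for HOXB9, 0.10 for HOXD10 and 0.13 for HOXD13. The value of 0.30 is the one meant below, and it understates the spread of dim genes.

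Of the 28 HOX genes, 17 were above background on at least 1 array (60.7%), against 58.2% of all 19735 genes. HOXB4 and HOXB7 were at least 2-fold lower in HARA-B4, where 4.20% of all genes above background were called lower. None of the 17 was at least 2-fold higher, where 3.62% of all genes were called higher. At 1.5-fold, 5 HOX genes were lower, where 11.0% of all genes were, and 1 was higher, where 10.2% were. The median difference of the 17 genes was -0.32, with 6 positive and 11 negative, while 51.5% of all genes had a positive and 48.5% a negative difference. The clusters differed in their values. All 5 HOXB genes above background had a negative difference (median -0.90), as had 5 of 7 HOXC genes (median -0.32), whereas 4 of 5 HOXD genes had a positive one (median 0.29). The differences of HOXD9, HOXD10 and HOXD11 lay within the within-gene SD.

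**Figure D1:**
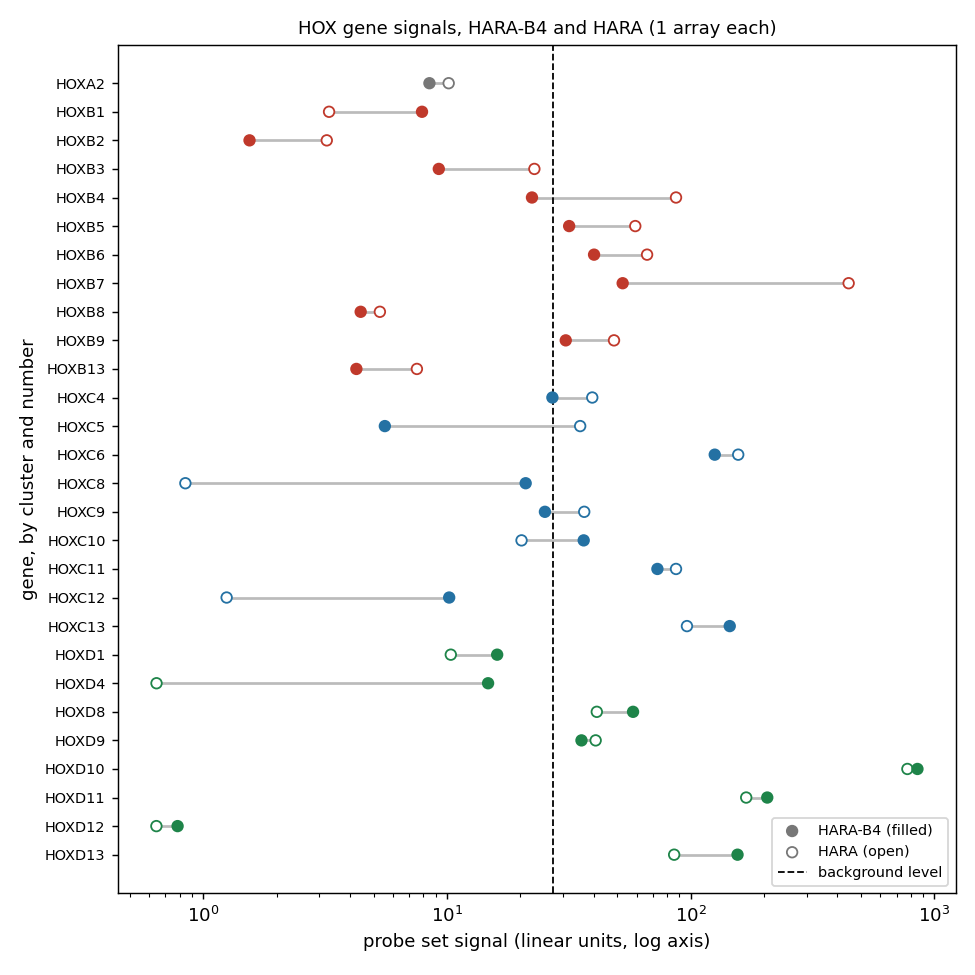
Signals of the 28 HOX genes on the HARA-B4 array (filled circles) and the HARA array (open circles), on a log axis, with genes down the page by cluster and number and the background level of 27.1 dashed. HOXB7 spans the widest gap among genes above background, with signals of 52.6 in HARA-B4 and 445 in HARA. Levels of different genes come from different probe sets and cannot be set against each other.

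Promoter windows in the RefSeq table (GRCh38.p14) covered 11 of the 28 genes, each from 250 bases before to 50 bases after a transcript's start. Those of the genes above background whose difference was larger in size than the within-gene SD are printed to show where transcription of these genes starts, 5′ to 3′ on the strand of the gene. HOXC4 and HOXC5 have one and the same window, chr12:54016638-54016937 on the plus strand, since a transcript of each starts at the same base. The windows of HOXD13 (chr2:176092471-176092770, plus strand) and HOXD8 (chr2:176129455-176129754, plus strand) belong to the HOXD genes with the most positive differences. Capitals mark the homeodomain core TAAT, the CCAAT box and the TATA sequence TATAAA on either strand (ATTA, ATTGG and TTTATA).
HOXC4 and HOXC5: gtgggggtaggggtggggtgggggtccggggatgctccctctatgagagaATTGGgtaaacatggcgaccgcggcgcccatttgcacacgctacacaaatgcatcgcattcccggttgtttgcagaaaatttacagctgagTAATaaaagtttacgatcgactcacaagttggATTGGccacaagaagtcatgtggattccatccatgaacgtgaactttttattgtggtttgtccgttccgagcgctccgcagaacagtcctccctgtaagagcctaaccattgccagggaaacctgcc
HOXD13: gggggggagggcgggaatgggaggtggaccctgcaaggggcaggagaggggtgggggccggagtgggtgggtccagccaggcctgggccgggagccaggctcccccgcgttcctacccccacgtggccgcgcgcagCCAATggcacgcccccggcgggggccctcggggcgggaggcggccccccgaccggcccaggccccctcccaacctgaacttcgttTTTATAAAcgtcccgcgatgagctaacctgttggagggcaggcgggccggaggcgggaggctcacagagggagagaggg
HOXD8: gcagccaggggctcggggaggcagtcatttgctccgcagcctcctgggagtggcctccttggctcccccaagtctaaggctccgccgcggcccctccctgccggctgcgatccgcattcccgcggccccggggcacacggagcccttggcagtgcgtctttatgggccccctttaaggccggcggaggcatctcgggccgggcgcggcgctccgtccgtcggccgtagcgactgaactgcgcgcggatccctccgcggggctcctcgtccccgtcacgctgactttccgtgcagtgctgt

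The HOXC4 and HOXC5 window held 1 TAAT and 2 CCAAT sequences and 15 CpG dinucleotides. That of HOXD13 held 1 CCAAT and 2 overlapping TATAAA sequences (1 on each strand) and 24 CpG, and that of HOXD8 held none of the 3 motifs and 34 CpG. Over all 35116 windows of the same length, 50.2% held TAAT, 34.6% CCAAT and 11.5% TATAAA, and the median number of CpG was 14. These are matches of letters in short windows and show no binding.

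In the HOXB cluster, the genes above background formed the stretch from HOXB4 to HOXB9 without HOXB8. HOXB7, a factor that has been linked to growth and invasion in breast cancer and melanoma, had a signal of 52.6 in HARA-B4 and 445 in HARA, a log2 difference of -3.08 (8.46-fold lower in HARA-B4). Among the 11489 genes above background, 19 had a lower value. Another probe set of HOXB7 read 44.3 in HARA-B4 and 427 in HARA (-3.27). The third read 26.4 in HARA-B4, just under background, and 103 in HARA, at least 3.80-fold lower in HARA-B4. All 3 HOXB7 probe sets were thus past 2-fold in the same direction. They end in _s_at or _x_at, the array's mark for probe sets that can match several transcripts or related genes, and the part of related transcripts in these signals was not tested.

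HOXB4, known for its part in the self-renewal of blood stem cells, had a signal of 22.3 in HARA-B4 and 87.1 in HARA. Its HARA-B4 signal lay under background, which makes it at least 3.21-fold lower there, on 1 probe set that carries no such mark. A background higher by 1 log2 unit gave a bound of -0.68, short of 2-fold. HOXB7 and HOXB4 therefore both showed a low level in HARA-B4 against a clear signal in HARA.

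The other HOXB genes above background were lower in HARA-B4 by less than 2-fold. HOXB5, which is active in the mesenchyme of embryonic mouse lung, had signals of 31.7 in HARA-B4 and 59.3 in HARA (-0.90), while its second probe set read 20.9 in HARA-B4 and 28.4 in HARA, a bound of only 1.05-fold. HOXB6, expressed in embryonic lung mesenchyme and in early red blood cells, read 40.2 in HARA-B4 and 66.3 in HARA (-0.72). Its other probe set, at 3.34 in HARA-B4 and 3.84 in HARA, was below background on both, and HOXB6 was not above background when its probe sets were averaged. With a background higher by 1 log2 unit, HOXB6 was at -0.29. HOXB9, which takes part in rib patterning in the mouse, read 30.7 in HARA-B4 and 48.5 in HARA (-0.66). The second HOXB9 probe set gave 29.0 in HARA-B4 and 32.8 in HARA (-0.17). Of 9 HOXB probe sets above background, 9 had negative differences and 4 were past 2-fold, 3 of them of HOXB7. Over all single-symbol probe sets above background, 4.14% were called lower. The probe sets that stand for HOXB5, HOXB6 and HOXB9 also end in _s_at or _x_at, and the smaller HOXB9 value came from one that does not. The levels of HOXB5 and HOXB9 in HARA-B4 lay close to background, and the sizes of their differences depended on the probe set.

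HOXB1, HOXB2, HOXB3, HOXB8 and HOXB13 were below background on both arrays. HOXB1 and HOXB2 pattern the hindbrain and HOXB13 marks the prostate and the tail end of the colon. HOXB3 came nearest to the background, with 9.26 in HARA-B4 and 22.9 in HARA. No fold is given for these 5 genes.

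In the HOXC cluster no gene reached 2-fold, and both directions occurred. The 4 genes above background between HOXC4 and HOXC9 all had negative differences (median -0.40), while 2 of the 3 between HOXC10 and HOXC13 had positive ones (median 0.43). The cut between HOXC9 and HOXC10 was not among the planned results. HOXC4, HOXC5, HOXC9 and HOXC10 have only bounds, and HOXC11 lay within the within-gene SD, so a change of direction along the cluster is not established. HOXC4, which is found in lymphoid and epidermal cells, had signals of 27.1 in HARA-B4 and 39.5 in HARA. It was just under background in HARA-B4, at least 1.46-fold lower. HOXC5 read 5.56 in HARA-B4 and 35.2 in HARA, at least 1.30-fold lower, a bound held small by the nearness of its HARA signal to background. HOXC4 and HOXC5, which share the window printed above, had the same direction. Both have only bounds, and HOXC6 and HOXC9 had that direction too. Whether their probe sets measure transcripts from the shared start was not tested.

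HOXC6, a gene often raised in prostate cancer, read 126 in HARA-B4 and 157 in HARA (-0.32). HOXC9, a thoracic patterning gene, read 25.3 in HARA-B4 and 36.6 in HARA, at least 1.35-fold lower in HARA-B4. The HOXC6 difference was close in size to the within-gene SD of probe sets, and HOXC9 has only a bound.

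Of the HOXC genes with high numbers, HOXC10 read 36.4 in HARA-B4 and 20.2 in HARA, at least 1.34-fold higher. HOXC11, a gene of the hindlimb and urogenital region, read 73.1 in HARA-B4 and 87.1 in HARA (-0.25). HOXC13, which drives hair and nail keratins, read 145 in HARA-B4 and 96.6 in HARA (0.58). HOXC13 was the HOXC gene with the most positive difference among those above background on both arrays. HOXC8, with 21.1 in HARA-B4 and 0.845 in HARA, and HOXC12, with 10.2 in HARA-B4 and 1.25 in HARA, were below background on both. Each HOXC gene was measured by 1 probe set, so none of these values had a repeat on the array.

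In the HOXD cluster the genes above background were HOXD8 to HOXD13 without HOXD12, and all 5 were above it on both arrays. HOXD13, the gene of digit and urogenital patterning, had signals of 156 in HARA-B4 and 85.6 in HARA, a difference of 0.86 (1.82-fold). A second HOXD13 probe set read 54.1 in HARA-B4 and 34.5 in HARA (0.65). The third read 50.2 in HARA-B4 and 24.1 in HARA, at least 1.85-fold. The 3 HOXD13 probe sets thus gave the same direction, under 2-fold on the 2 that were above background on both arrays, while the third has only a bound.

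HOXD8 read 58.1 in HARA-B4 and 41.2 in HARA (0.49) on its only probe set. HOXD10, whose loss has been described in breast cancer, read 853 in HARA-B4 and 776 in HARA, a difference of 0.14. Its other probe sets differed by 0.29 and 0.10. HOXD10 was positive in all 3 probe sets, and each value was within the within-gene SD of 0.30. HOXD11, a limb and kidney patterning gene, read 206 in HARA-B4 and 169 in HARA (0.29), and HOXD9 read 35.7 in HARA-B4 and 40.8 in HARA (-0.19), both also within it. HOXD1, HOXD4 and HOXD12 were below background on both arrays.

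The only HOXA gene, HOXA2 of the second pharyngeal arch and middle ear, read 8.48 in HARA-B4 and 10.2 in HARA, below background on both.

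**Figure D2:**
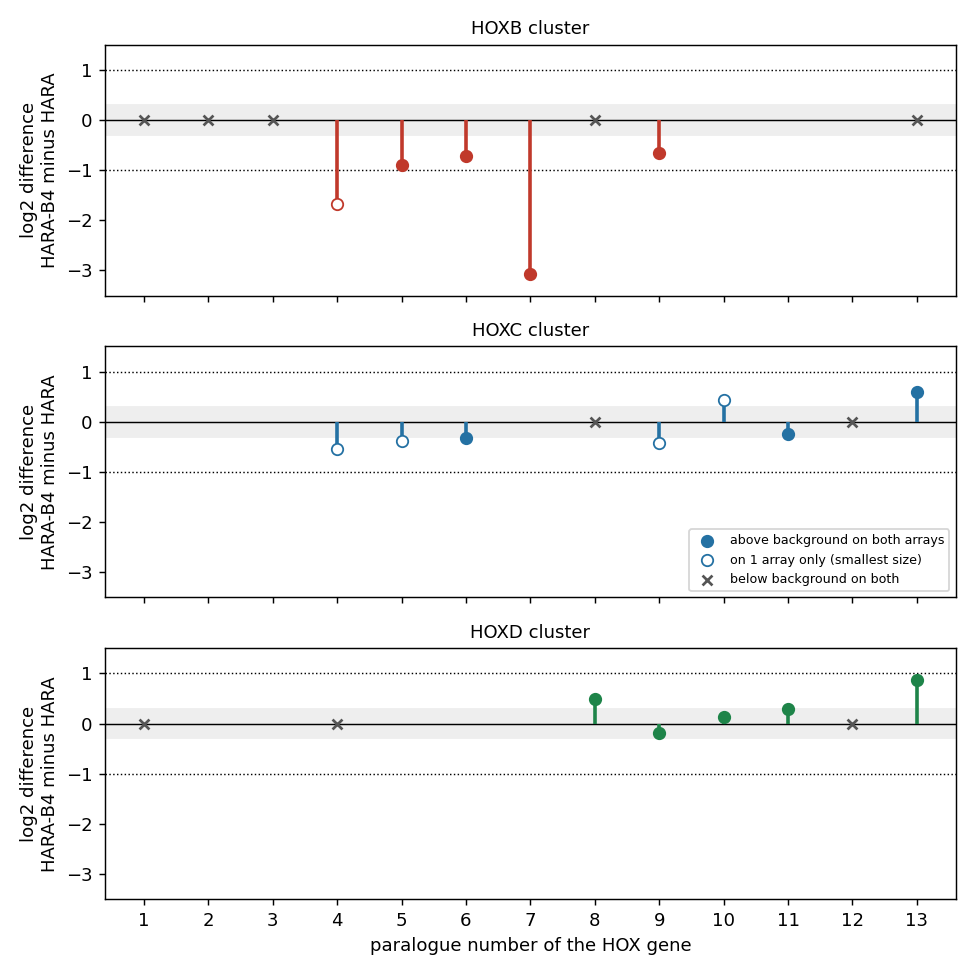
Log2 difference (HARA-B4 minus HARA) of HOXB, HOXC and HOXD genes by paralogue number. Filled circles are genes above background on both arrays, open circles genes above it on 1 array only, drawn at their smallest possible size, and crosses genes below it on both. The grey band is the within-gene SD of 0.30 and the dotted lines mark 2-fold. Among genes above background, HOXB4 and HOXB7 lie past the lower line, and the HOXD genes except HOXD9 lie above 0.

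Read by paralogue number, a grouping made after the values were seen, all 7 genes above background numbered 4 to 7 had negative differences (median -0.72) and 5 of 6 numbered 10 to 13 had positive ones (median 0.36). Of these, HOXB4, HOXC4, HOXC5 and HOXC10 have only bounds. HOXC11 (-0.25), HOXD10 (0.14) and HOXD11 (0.29) lay within the within-gene SD. Among those numbered 8 and 9, 1 of 4 was positive. The 3 genes of number 9 measured in all 3 clusters were negative, at -0.66 for HOXB9, -0.19 for HOXD9 and at least 1.35-fold lower for HOXC9. The HOXD9 value lay within the within-gene SD, and the second HOXB9 probe set gave -0.17. Both genes of number 13 above background, HOXC13 (0.58) and HOXD13 (0.86), were positive. No HOXB gene numbered 10 or more and no HOXD gene numbered under 8 was above background, so number and cluster cannot be told apart in most of this pattern.

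**Figure D3:**
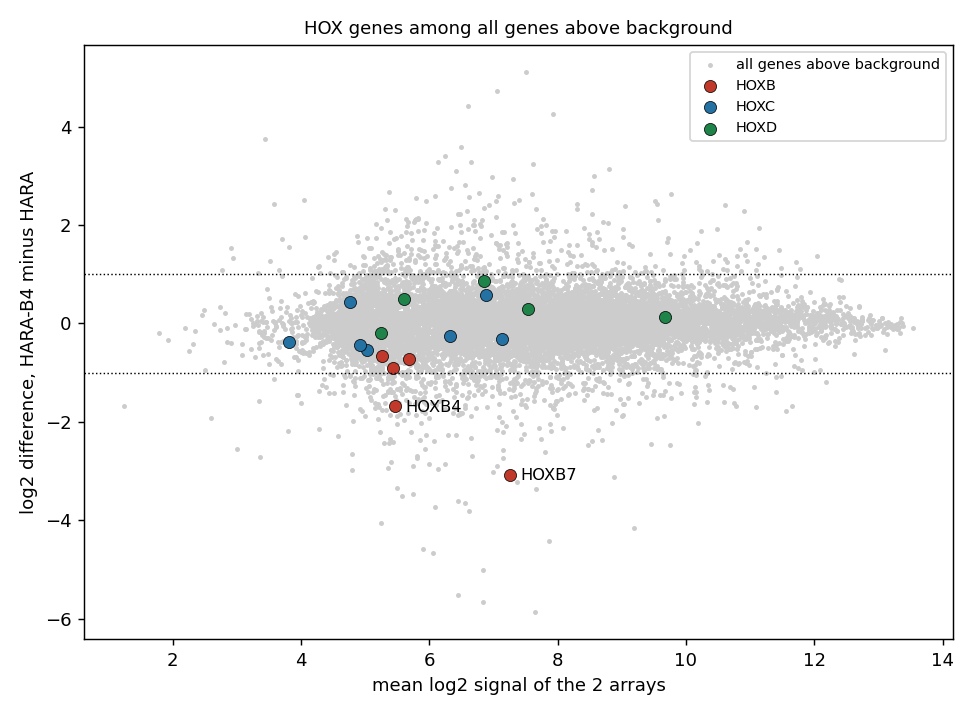
Log2 difference (HARA-B4 minus HARA) against the mean log2 signal of both arrays for 11489 genes above background (grey) and for HOXB, HOXC and HOXD genes (coloured), with genes above background on 1 array only at their bound. HOXB7 (-3.08) has 19 genes below it, HOXB4 lies past the dotted 2-fold line, and the other HOX genes lie between these lines.

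Genes next to the clusters were compared, since neighbours can differ together where a chromosome segment does. The 8 nearest genes above background on each side were taken in RefSeq order. Counts of these stand beside the 3.62% of all genes called higher and 4.20% called lower. Around HOXB, 1 of 16 flanking genes was at least 2-fold higher and 0 were lower. It was the RNA-binding protein gene IGF2BP1, which read 59.7 in HARA-B4 and 6.25 in HARA and was at least 2.20-fold higher in HARA-B4. The median of the 16 was -0.01, with 8 positive and 8 negative and a lowest value of -0.34. The 5 HOXB genes lay below that lowest value on the probe sets that stand for them. The second probe sets of HOXB9 (-0.17) and HOXB5 (a bound of -0.07) did not. The part of a shared segment in the HOXB values was not tested.

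Around HOXC, 0 of 16 flanking genes reached 2-fold, with a median of 0.03. Around HOXD, 2 of 16 were at least 2-fold higher and the median was 0.18. They were the long noncoding RNA gene LINC01116, at 57.4 in HARA-B4 and 19.9 in HARA (at least 2.12-fold), and IFT70B of intraflagellar transport, at 104 in HARA-B4 and 51.2 in HARA (1.02). Around HOXA, JAZF1 (1.15) and CPVL (1.97) were higher among 16, with a median of 0.15. Positive and negative differences numbered 11 and 5 around HOXD, 10 and 6 around HOXA, and 10 and 6 around HOXC. The genes next to HOXD thus also were mostly positive. The flanks of HOXD and HOXA thus had the same count of calls and similar medians, and the part of a shared segment in the HOXD values was not tested.

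**Figure D4:**
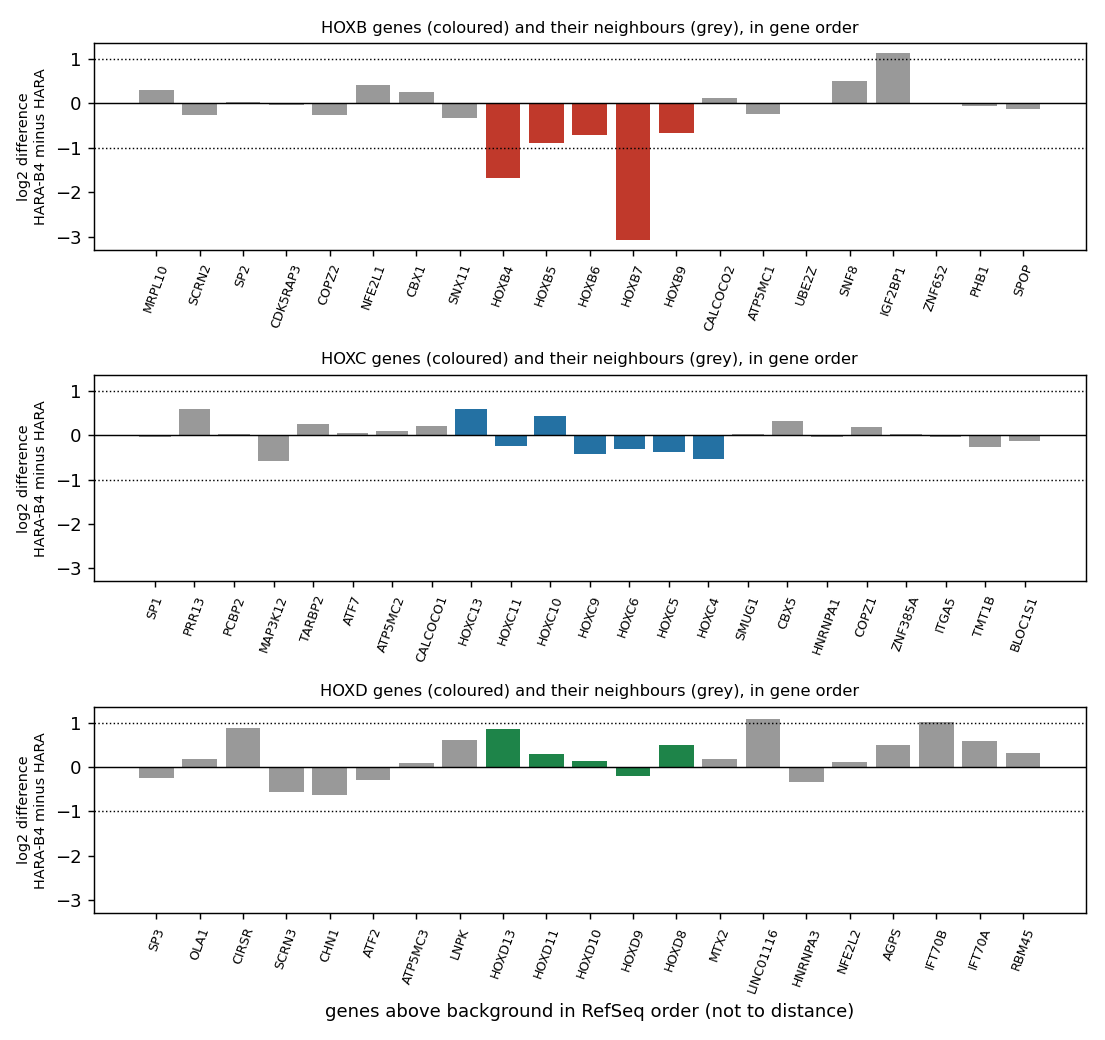
Log2 difference (HARA-B4 minus HARA) of HOXB, HOXC and HOXD genes above background (coloured bars) and of the 8 nearest genes above background on each side (grey bars), in RefSeq gene order and not to distance. Genes above background on 1 array only are drawn at their bound, and dotted lines mark 2-fold. The 5 HOXB bars all point down, while their 16 neighbours lie on both sides of 0, from -0.34 up to IGF2BP1 at its bound of 1.14.

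Genes that act with HOX proteins or on the clusters were read from lists, by their counts beside the 3.62% of all genes called higher and 4.20% called lower. The list of TALE cofactors, which bind DNA with HOX proteins, also held PBXIP1, a PBX-interacting protein. Of the 7 genes of this list above background, 0 reached 2-fold and the median was -0.01. On the probe sets that stand for each gene, the largest differences were those of MEIS1, at 52.7 in HARA-B4 and 75.6 in HARA (-0.52), and PBX2, at 46.4 in HARA-B4 and 64.5 in HARA (-0.48). Another probe set of PKNOX1 was at 0.67, and PBX4, at 27.3 in HARA-B4 and 7.54 in HARA, has only a bound. HOX antisense and long noncoding genes were nearly all dim, with 1 of 12 measured above background. That gene was HOTTIP, transcribed from the edge of the HOXA cluster, at 58.4 in HARA-B4 and 51.8 in HARA (0.17).

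Of 28 genes of the Polycomb complexes and of the enzymes that remove their mark, 0 were at least 2-fold higher and 1 was lower in HARA-B4 (median -0.02). EZH2, the methyltransferase that places the silencing mark on histone H3, read 383 in HARA-B4 and 791 in HARA (-1.05). It passed 2-fold narrowly, on 1 probe set. Its partners EED (-0.42) and SUZ12 (-0.16) were under 2-fold. A second-choice probe set of RBBP4 (-1.11) and of RYBP (-1.15) was past 2-fold, against 0.36 and -0.39 on the probe sets that represent these genes.

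Of 18 genes of the MLL and DOT1L complexes and CTCF, 0 were higher and 1 was lower (median -0.06). AFF1, a partner of MLL in leukaemic fusions and part of elongation complexes, read 18.4 in HARA-B4 and 112 in HARA, at least 4.13-fold lower in HARA-B4. KMT2A, which encodes MLL itself, differed by 0.24, with its 6 probe sets between -0.37 and 0.97, and KMT2C by -0.44 with another probe set at -1.01. The lists of silencing and activating factors each had 1 member called lower, of 28 and of 18, beside 4.20% of all genes. Counts of 1 are too small to describe a shift of either list. The chromosomal neighbours of EZH2, AFF1 and KMT2C were not compared. The part of a shared segment in their values was not tested.

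Retinoic acid is an inducer of HOX clusters in embryos. Of 11 genes of its signalling above background, 2 were higher in HARA-B4 and 0 lower (median 0.14). DHRS3, a reductase that limits retinoic acid formation, read 143 in HARA-B4 and 52.7 in HARA (1.44). NRIP1, a corepressor of nuclear receptors, read 141 in HARA-B4 and 64.6 in HARA (1.13), with another probe set at 0.65. CYP26A1, which breaks retinoic acid down and is one of its direct targets, read 1723 in HARA-B4 and 1559 in HARA (0.14). That difference was smaller than the within-gene SD. ALDH1A3, another gene of the list, read 2414 in HARA-B4 and 1239 in HARA (0.96), just under 2-fold. Of the 11 genes, 7 had a positive and 4 a negative difference, and retinoic acid activity was not tested.

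Of 11 other homeobox genes of the Antennapedia class above background, 0 reached 2-fold on the probe set that represents them, with a median of 0.30. Positive differences numbered 7 and negative ones 4. The largest on these probe sets was that of MNX1, at 72.7 in HARA-B4 and 37.9 in HARA (0.94). DLX2, a gene of branchial arch and forebrain patterning, differed by 0.70 and by 1.34 on a second probe set, and MSX2, of skull and tooth development, by -0.45 and -1.11. Their directions differed, and neither gene had agreement of its probe sets at 2-fold.

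**Figure D5:**
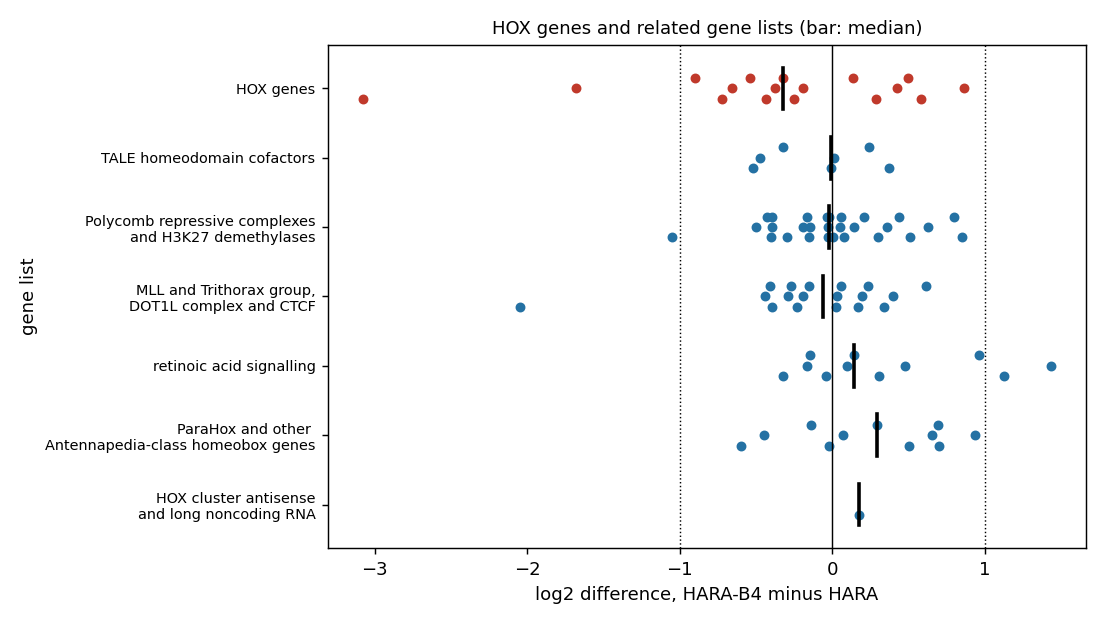
Log2 difference (HARA-B4 minus HARA) of the 17 HOX genes above background (red) and of the members of 6 related lists above background (blue), 1 point a gene, with the median as a black bar, genes above background on 1 array only at their bound, and dotted lines at 2-fold. HOXB7 at -3.08 is the lowest point, followed by AFF1 and HOXB4.

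The labelled cell type was checked by its markers. All 7 squamous markers measured were above background on both arrays, among them KRT5, at 4504 in HARA-B4 and 4723 in HARA. Of 8 fibroblast markers, which matter here because fibroblasts carry strong HOX patterns, 2 were above background. COL1A1 differed by -0.40, and THY1 was at least 2.35-fold lower in HARA-B4, the direction of the HOXB genes. The summed signal of the 8 was 218 in HARA-B4 and 299 in HARA, and COL1A2, COL3A1, DCN and LUM were below background on both arrays. The part of fibroblast RNA in the HOXB values was not tested. Of 5 alveolar and glandular lung markers, 3 were above background. NKX2-1 read 41.9 in HARA-B4 and 58.6 in HARA, SFTPB read 56.1 in HARA-B4 and 43.7 in HARA, and SFTPC was above background in HARA only. SCGB1A1 was below background on both arrays. Of the endothelial markers 1 of 4, PECAM1 (-0.01), and of the blood markers 1 of 5, HBB (-0.07), was above background, while CDH5, VWF and PTPRC were below it on both arrays. Of 5 osteoblast and osteoclast markers measured, 0 were above background on either array.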

How the data were processed

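Total RNA of HARA-B4 and HARA was measured on 1 array each. The authors deposited 1 intensity per probe set on a linear scale. Affymetrix Expression Console is named, per the submitters' processing notes, with its version, algorithm and scaling not given in the sources used here. Values were used as deposited and turned to log2, with differences HARA-B4 minus HARA. Of 54675 probe sets, 41097 had 1 symbol in the platform annotation, 1801 several and 11777 none; 41043 of the first were matched by Entrez ID to RefSeq (GRCh38.p14), which gave current symbols and gene order. 3 HOX probe sets with several symbols were left out. The background percentile (95), the probe set rule and the 2-fold limit are as in the report. With 1 array per line there is no test, and the number of arrays limits precision. Receptor pseudogenes were counted among the background probe sets, a choice made after seeing the data. All HOX genes measured are named; from each list, members past 2-fold on a probe set above background, or else the 2 largest; of flanking genes, those past 2-fold. EED, SUZ12, KMT2A, CYP26A1, ALDH1A3, MNX1 and the named markers were chosen after their values were seen. The members and lists were chosen with earlier results of these data known. Alternatives covered scaling, background, probe sets, the log offset and the fold limit. Scripts ran in Python 3.11.15 with pandas 2.3.3 and statsmodels 0.14.6 and were tested on simulated data.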

Additional observations from a re-analysis of the deposited data

How the results depend on the processing

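No value of the 17 HOX genes turned its sign under the 9 alternatives that gave gene values. Those that moved only the background level or the log offset could not turn a sign, and genes that fell below background had no value. Subtracting the median difference of 0.02 could not either, since the smallest HOX difference was 0.14 (HOXD10). Settings that changed the choice of probe sets left genes with 1 probe set at the same value or without one. The unchanged signs are therefore a limited check. The median of the HOX genes stayed negative. It ran from -0.34 with the median difference subtracted to -0.13 with a background higher by 1 log2 unit. That higher background left 11 HOX genes above it, with 1 HOX gene lower, HOXB7, and 1 called in the HOXB cluster. HOXB4 was lost, and 3.56% of all genes were lower at that setting. With _s_at and _x_at probe sets left out, 1 was lower and 1 called in the HOXB cluster, HOXB4, since no HOXB7 probe set was left. Of all genes, 4.38% were lower there. At 1.5-fold, 5 were lower (11.0% of all genes were), all 5 of the HOXB cluster, and 1 was higher, HOXD13, the 1 called in the HOXD cluster (10.2% of all genes were higher). At 3-fold HOXB4 and HOXB7 were still lower, where 1.35% of all genes were. Of 140 gene values recomputed, 11 moved by more than the within-gene SD, HOXB4 and HOXB7 among them, and HOXB5 lay between -0.92 and -0.13. The background without receptor pseudogenes was added after seeing the data and altered no call among the HOX genes. No paired analysis was possible because each line has 1 array. The arrays limit what can be read for genes near background, which includes HOXB5, HOXB9, HOXC4, HOXC5, HOXC9 and HOXC10.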
